A study of Mus musculus with 2 samples.

Results

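The interferon-inducible p200 cluster is a run of related genes on the distal part of mouse chromosome 1, and 8 of them are described here: Ifi202b, Ifi203, Ifi204, Ifi205, Ifi209, Ifi213, Mndal and Aim2. They were selected on their shared cluster and on the congenic against control difference of Ifi202b in these 2 arrays, so every difference given for them is a description of values that were known when they were chosen. A probe set, which is the group of short probes that reads 1 transcript on an Affymetrix array, was taken as a member when the platform annotation gave it one of these symbols and no other. By this rule 10 probe sets of 7 genes were found among 34945 probe sets of 18193 genes with a single symbol. Ifi205 had no probe set of its own.

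Liver RNA was compared between Bglu3 congenic mice and C57BL/6 apoE-/- control mice, with 1 array per group and no replicate array. Bglu3 is a locus for blood glucose, and congenic mice have a stretch of chromosome from a donor strain bred into a recipient strain. All mice went onto chow at weaning, at 3 weeks of age, started a Western diet at 6 weeks and ate it for 12 weeks, and the labels list C57BL/6 as a strain and hyperglycemia as the disease state in both groups. The labels give apoE-/- for the control mice and no apoE genotype for the congenic mice, nor the sex and number of animals behind an array, any pooling of RNA, the donor strain or the ends of the segment. The tissue label was checked on 11 hepatocyte markers, which had a summed intensity of 114665 in congenic and 110705 in control liver, and 0 of the 11 differed by 1.5-fold or more.

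Proteins of this family carry a HIN domain, which binds DNA, and most also carry a pyrin domain, which recruits partner proteins. Interferons induce many of the genes, and the family is known for sensing foreign or misplaced DNA and for restraining cell growth. AIM2 is the member that senses DNA in the cytosol and assembles an inflammasome with the adaptor ASC and caspase-1, while p202, the product of Ifi202b, lacks the pyrin domain and is known to hold AIM2 back. In liver, macrophages and other immune cells are known to carry much of this pathway. The RNA came from whole liver, so more cells of a type and more RNA per cell cannot be told apart.

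The upstream sequence of the family is shown first, because it is the part of each gene where interferon-activated factors are known to act. The sequences are from RefSeq on the build GRCm38.p6 of C57BL/6J, while the labels give C57BL/6 for the control mice without a substrain, and the donor's sequence is not analysed here. The 250 bases before each listed start were searched on both strands for GAAANNGAAA, the core of the interferon-stimulated response element, and for TTCNNNGAA, the core of the gamma-activated site. The first motif was found before 9 of the 12 family genes in the RefSeq promoter table. Counted by listed start it was found at 10 of 14, against 2.98% of all 32851 listed promoters. No match was found for Aim2, Ifi202b or Ifi209, nor at 1 of the 2 listed starts of Ifi203. Ifi204 is not in that table.

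The 250 bases upstream of Ifi202b are printed because this gene had the largest difference. Capitals mark its single match to TTCNNNGAA, from base -148 to base -140 before the start, a motif present in 7.02% of all promoters and in no other family gene here. The pattern is the same on both strands, and a match is a description and not a shown binding site.
Ifi202b, chr1:173982845-173983094, minus strand: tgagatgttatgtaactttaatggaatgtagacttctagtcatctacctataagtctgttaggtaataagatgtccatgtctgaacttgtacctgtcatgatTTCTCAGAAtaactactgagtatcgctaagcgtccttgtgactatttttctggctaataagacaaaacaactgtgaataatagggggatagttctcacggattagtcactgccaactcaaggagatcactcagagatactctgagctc

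Windows of 40 bases around the GAAANNGAAA match are printed for Ifi213, Mndal, Ifi203 and Ifi205, with the match in capitals. Ifi214, a family gene that is no member, is added because its upstream sequence was 94.4% identical to that of Ifi209. Ifi203 and Mndal have 2 listed starts each, and the windows belong to the pair whose upstream sequences were 89.3% identical. In Ifi209 the capitals mark the bases aligned with the match of Ifi214, which differ from the motif by G1T, counted from 1 at the motif's 5′ end with the motif's base first.
Ifi213, chr1:173599321-173599360, minus strand: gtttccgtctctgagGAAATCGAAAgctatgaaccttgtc
Ifi214, chr1:173536012-173536051, minus strand: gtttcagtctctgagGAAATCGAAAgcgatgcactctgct
Ifi209, chr1:173630765-173630804, plus strand: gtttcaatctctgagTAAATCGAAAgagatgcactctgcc
Mndal, chr1:173880199-173880238, minus strand: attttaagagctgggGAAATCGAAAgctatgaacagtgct
Ifi203, chr1:173942503-173942542, minus strand: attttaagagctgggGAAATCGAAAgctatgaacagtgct
Ifi205, chr1:174031865-174031904, minus strand: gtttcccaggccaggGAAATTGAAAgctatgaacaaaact

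The printed windows of Mndal and Ifi203 read the same, letter for letter. The upstream sequence of Ifi202b shared no more than 55.1% of aligned positions with any other family gene, the highest being with Ifi208. This was not particular to Ifi202b, since the highest share was 48.9% for Aim2 and 48.4% for Ifi205.

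Values are intensities on a linear scale as deposited, and a difference is the congenic value minus the control value on the log2(intensity + 5) scale. The pseudocount of 5 keeps dim probe sets from giving unbounded folds, and it understates the difference of dim probe sets. A probe set passed the filter on low values when it was at or above the median of its array (19.3 congenic, 19.7 control) on at least 1 array. Of the 10 member probe sets, 8 passed. A single array per group gives no replicate error and allows no test, so differences were counted by a fixed size of 1.5-fold on that scale. By this size 2 of the 8 were higher in the congenic array (Ifi202b and 1 probe set of Mndal), 2 were lower (1 probe set each of Ifi209 and Ifi213) and 4 lay within it. Of all 20973 single-symbol probe sets past the filter, 7.22% were higher and 6.04% lower by this size, and because the members were chosen with this contrast in view nothing is read from their share. The median difference of the 8 was 0.12, against 0.03 over all probe sets past the filter, and it became -0.11 when only probe sets with a plain _at name were kept. That setting leaves out Ifi202b 1421551_s_at and Mndal 1452231_x_at.

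**Figure D1:**
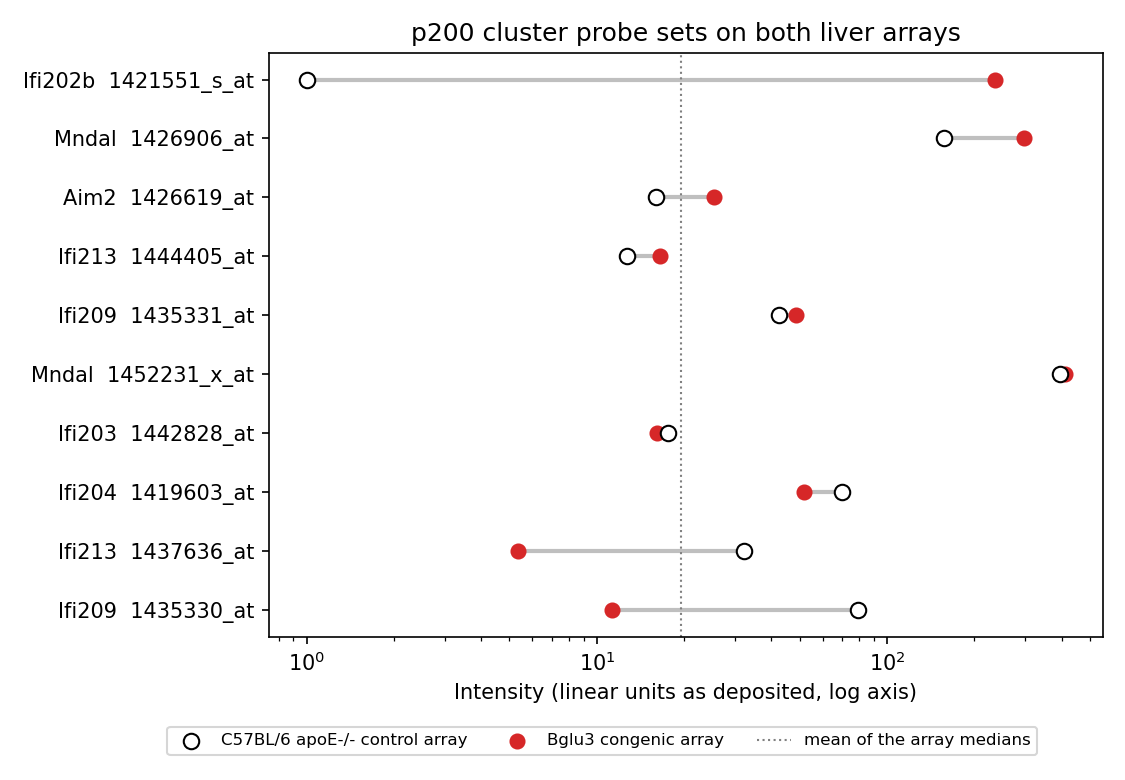
Intensity of each of the 10 member probe sets (rows) on the control array (open circles) and the congenic array (red circles), on a log axis in linear units as deposited, with 1 array per group and no error bars. The Ifi202b pair spans 1 to 237, and the pairs of Ifi209 1435330_at and Ifi213 1437636_at run the opposite way, from 79.7 to 11.3 and from 32.2 to 5.34. The dotted line is the mean of the array medians.

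Ifi202b, which encodes p202, was measured by the probe set 1421551_s_at at an intensity of 237 in congenic and 1 in control liver. The difference of 5.33 was the highest of the 20973 probe sets past the filter, and it was 3.61 with a pseudocount of 20 and 7.89 with none. The value 1 recurs as a low value on this array, where 1634 probe sets stood at it, so it does not measure how far the transcript lay below the congenic level. Those 1634 probe sets had a median of 1.96 on the congenic array. Ifi202b was the only one of them at 100 or more there, and the next highest stood at 48.0. In the other direction, the 1677 probe sets at 1 on the congenic array reached at most 28.3 on the control array. Ifi202b was selected on this contrast, so its place among these probe sets is a description and nothing is read from it.

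A second probe set, 1457666_s_at, is annotated to Ifi202b together with an uncharacterised locus, so it falls outside the rule and was picked after its values were seen. It stood at 375 in congenic and 5.18 in control liver, a difference of 5.22. Both readings come from the same 2 RNA preparations and are not replicates. The _s_at ending marks probe sets designed to match more than 1 transcript, and close relatives in the cluster could contribute to either.

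Aim2, the cytosolic DNA sensor, had 1 probe set, at 25.4 in congenic and 16.1 in control liver. The difference of 0.53 was below 1.5-fold on the scale used here, and the control value lay below the array median. For Aim2 the difference was 0.33 with a pseudocount of 20 and 0.66 with none, which is past 1.5-fold. With none, 3 member probe sets were higher by that size. Ifi204, whose product p204 is known to bind the retinoblastoma protein and to act in differentiation, stood at 51.7 against 70.1. Its difference of -0.41 was in the opposite direction to those of Aim2 and Ifi202b and also within 1.5-fold. Ifi203 had a single-symbol probe set that did not pass the filter, at 16.1 against 17.7 (difference -0.10), so this probe set was near the middle of each array. Brighter probe sets that list Ifi203 along with other loci are given below.

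The probe sets of Ifi209, the gene also called Pyhin1, disagreed. The probe set 1435330_at stood at 11.3 in congenic and 79.7 in control liver, a difference of -2.38, the 10th lowest of all 20973. This difference was -1.67 with a pseudocount of 20 and -2.82 with none. The probe set 1435331_at stood at 48.8 against 42.4, a difference of 0.18. The annotation lists the same sequence entry for both, and their differences lay 2.56 apart on the log2 scale. Among 5189 genes with several probe sets past the filter, 15 (0.289%), Ifi209 included, had a range as wide, and the median range was 0.31.

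Ifi213 showed the same split. The probe set 1437636_at stood at 5.34 in congenic and 32.2 in control liver, a difference of -1.85, the 40th lowest. With a pseudocount of 20 this difference was -1.04, and with none -2.59. The probe set 1444405_at, which did not pass the filter, stood at 16.5 against 12.7 (difference 0.27). Without a filter, 102 of 9010 genes with several probe sets (1.13%) had a range at least as wide as the 2.12 between these 2. For both Ifi209 and Ifi213 the lower probe set was below the array median on the congenic array, so neither counts when the filter is required on both arrays. Ifi202b likewise drops out under that filter, because it stood at 1 on the control array.

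Mndal, a relative of the human myeloid nuclear differentiation antigen, also had a pair of probe sets. The probe set 1426906_at stood at 296 in congenic and 157 in control liver, a difference of 0.89, past 1.5-fold. The probe set 1452231_x_at, whose ending marks probes that can bind other transcripts, stood at 410 against 394 (difference 0.05). The range of 0.84 between them was matched or exceeded in 634 of the 5189 genes (12.2%), so this pair was less far apart than that of Ifi209.

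**Figure D2:**
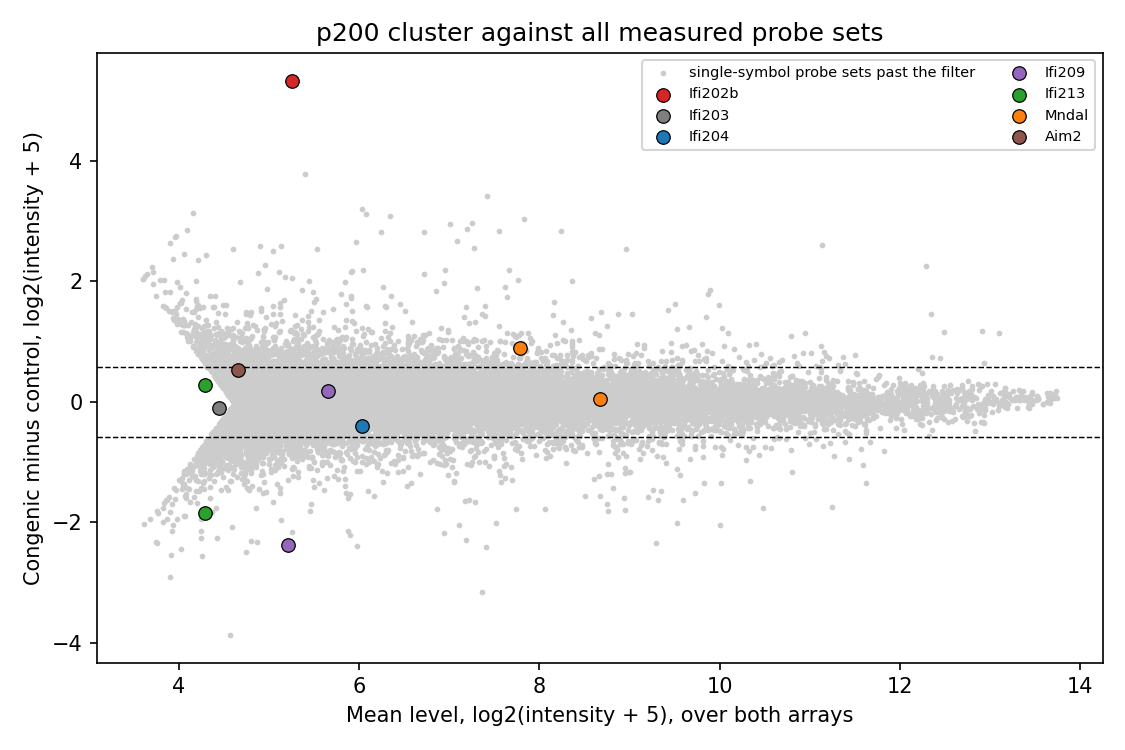
Congenic minus control difference (vertical, log2) against the mean level over both arrays (horizontal, log2), for single-symbol probe sets past the filter (grey) and the 10 member probe sets (coloured by gene). Dashed lines mark 1.5-fold. Ifi202b stands above all grey points at 5.33, while Ifi209 and Ifi213 have 1 point each far below the lower line and 1 point between the lines.

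Other probe sets of the cluster are annotated to several symbols and name no single gene. They were added after their values were seen. The probe sets 1448775_at and 1451567_a_at, both annotated to Ifi203 along with the pseudogene Ifi203-ps and other loci, stood at 400 against 186 (difference 1.09) and 191 against 50.6 (1.82). Another with the same kind of annotation, 1425008_a_at, was dim at 4.46 against 4.25. The only probe sets that list Ifi205 also list Ifi211, and one of them lists Mndal and Ifi204 too. They stood at 309 against 369 (1452349_x_at, difference -0.25) and 220 against 206 (1452348_s_at, 0.09). Ifi205 can therefore not be told apart from its neighbours here. Of the family genes that are no members, Ifi207 had a probe set of its own, at 148 against 156 (difference -0.08).

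Read along the chromosome, the cluster did not shift as a block. In gene order its measured members run Aim2, Ifi213, Ifi209, Ifi204, Mndal, Ifi203 and Ifi202b. Single-symbol probe sets gave 0.53 for Aim2, -1.85 and 0.27 for Ifi213, -2.38 and 0.18 for Ifi209, -0.41 for Ifi204, 0.89 and 0.05 for Mndal, -0.10 for Ifi203 and 5.33 for Ifi202b. The Ifi203 value is from a probe set that did not pass the filter. Probe sets shared by Ifi203 and other loci that passed it had differences of 1.09 and 1.82. The pair of Ifi209 had nearly the same mean intensity, 45.5 and 45.6, so brightness does not settle which of them stands for the gene. Of the 15 measured genes on each side, 20 passed the filter, and 8 of these were higher and 1 lower by 1.5-fold or more in the congenic array. Over all 12613 genes past the filter, by brightest probe set, 7.59% were higher and 5.26% lower. The highest were Kcnj10, a potassium channel gene, at 145 against 34.8 (difference 1.91), and Fmn2, which encodes an actin-nucleating formin, at 79.3 against 18.8 (1.82). The lowest were Dusp23, a phosphatase gene, at 36.6 against 58.8 (-0.62) and Slamf8, a surface receptor gene of myeloid cells, at 27.3 against 41.6 (-0.53). With the filter required on both arrays, 4 of these neighbours were higher.

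**Figure D3:**
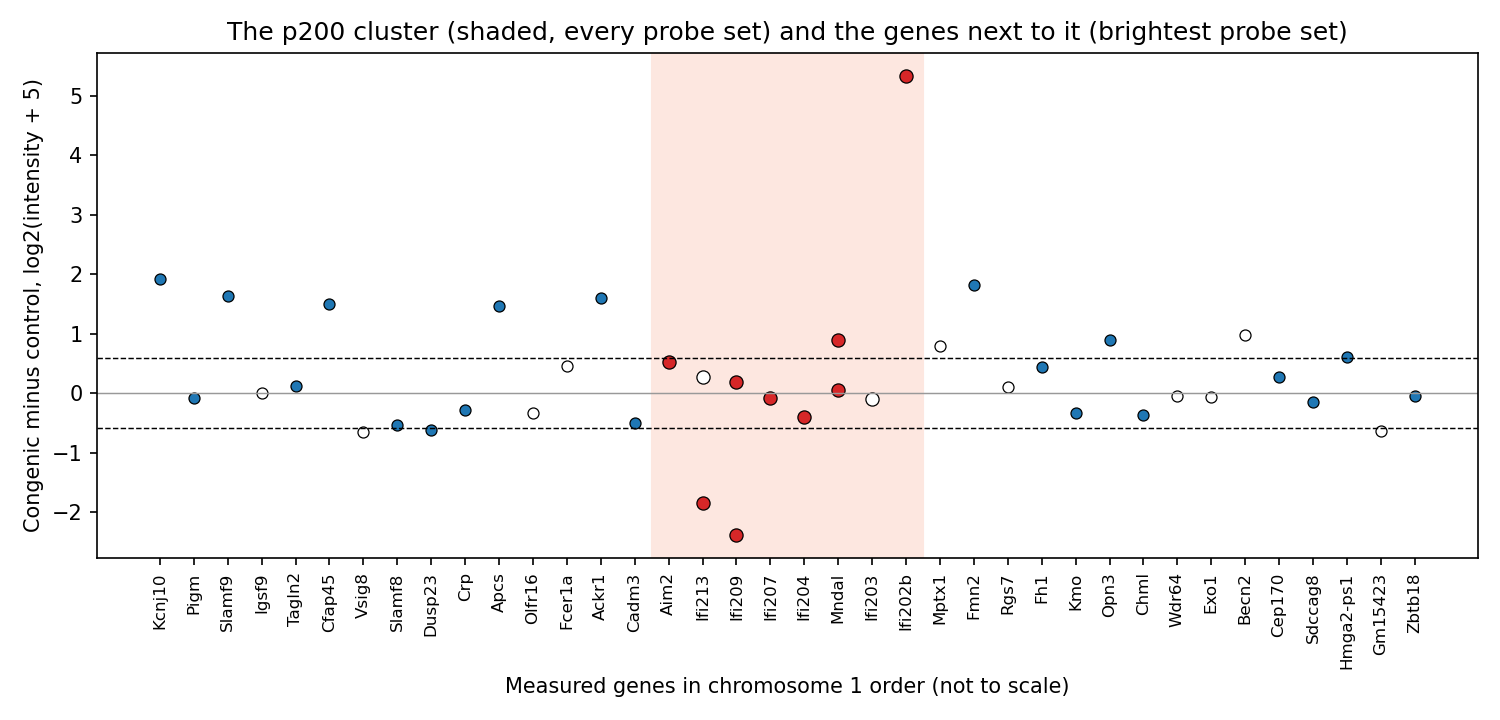
Congenic minus control difference (vertical, log2) of measured genes in chromosome 1 order (horizontal, not to scale). Red points in the shaded span are the probe sets of the cluster, Ifi207 included, and blue points the brightest probe set of each of 15 genes on either side. Open points did not pass the filter, and dashed lines mark 1.5-fold. Members point both ways inside the span, from -2.38 to 5.33.

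By Euclidean distance over the 2 arrays, on the log2(intensity + 5) scale, the genes outside the cluster most like Ifi202b were Camp, Prtn3, Mpo, Itpkb and Cib3. The distances ran from 1.12 for Camp (151 in congenic and 6.35 in control liver) to 2.00 for Cib3 (68.3 against 7.21). Camp, Prtn3 and Mpo encode granule proteins of neutrophils and their precursors, and Itpkb, an inositol phosphate kinase gene, also lies on chromosome 1. Likeness over 2 arrays is only a measure of 2 similar values.

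Genes of DNA sensing and the inflammasome were higher in part. Of 16 measured genes of this list, 6 were higher by 1.5-fold or more and 0 lower, against 7.59% and 5.26% of all genes past the filter. Their median difference was 0.31 against 0.04 over all genes. With the filter required on both arrays, 5 were higher. Pycard, which encodes the adaptor ASC that joins AIM2 to caspase-1, stood at 271 in congenic and 98.3 in control liver (difference 1.42). Sting1, the adaptor of cytosolic DNA signalling, stood at 43.6 against 18.1 (1.07), with the control value below the array median. The lowest were Nlrp6, an inflammasome sensor gene, at -0.04 and Cgas, which encodes the enzyme that makes the STING ligand, at -0.01. Casp1 stood at 203 against 100 (0.99), while the caspase-1 substrates Gsdmd (296 on both arrays, difference -0.0018), Il18 (658 against 537, difference 0.29) and Il1b (188 against 132, difference 0.49) were within 1.5-fold. These 4 were named for their place beside AIM2 after their values were seen.

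Genes that carry the interferon signal differed less. Of 15 receptor, kinase and factor genes 0 were higher and 1 was lower, with a median of 0.13. Over all 12613 genes past the filter 7.59% were higher and 5.26% lower, with a median of 0.04, so nothing is read from the counts of these 15. The highest were Irf7 (difference 0.54) and Irf1 (0.43), transcription factors of the interferon response. The lowest were Socs1, an inhibitor of the receptor kinases, at 33.5 against 57.2 (-0.69) and Usp18, which restrains the type I receptor, at 352 against 526 (-0.57). Among 32 interferon-stimulated genes outside the cluster, 9 were higher and 1 lower, with a median of 0.28. Oasl2, of the oligoadenylate synthetase family, stood at 201 against 97.3 (1.01) and Psmb9, an immunoproteasome subunit, at 460 against 267 (0.77). The chemokine gene Cxcl10 stood at 90.8 against 140 (-0.60) and the antiviral gene Mx2 at 29.7 against 38.0 (-0.31). The count of higher genes was 4 with a pseudocount of 20 and 5 after quantile normalization. Ifi202b had the highest difference of all probe sets past the filter, so a comparison of these genes with it in size has a fixed outcome.

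Many markers of several immune cell types were also higher on the congenic array, and some were lower. Over all 12613 genes past the filter, 7.59% were higher by 1.5-fold or more and 5.26% lower. Macrophage and Kupffer cell markers were higher by 1.5-fold or more in 11 of 17 genes and lower in 0, with a summed intensity over the 17 of 37056.8 in congenic and 24809 in control liver. Neutrophil markers were higher in 9 of 13 and lower in 0, with sums of 12937.4 and 5295.88, most of which came from Lcn2, a secreted lipocalin, at 8590.0 and 3853. Camp, at 151 against 6.35, had the largest difference among the neutrophil markers (3.78). T cell and NK cell markers were higher in 5 of 9 and lower in 1 (sums 418 and 295), and B cell and plasma cell markers higher in 4 of 9 and lower in 2 (sums 3694 and 3392). Most of the last sums came from Xbp1, a transcription factor gene that hepatocytes also express, at 2344 against 2703. Among the higher B cell and plasma cell markers, Jchain stood at 391 against 49.4 and Ighm at 429 against 89.8. The 2 lower ones were Pax5, at 6.64 against 23.6, and Cd22, at 219 against 350. The lower T cell and NK cell marker was Prf1, whose difference of -2.32 was the largest in size in its list. Of 4 dendritic cell markers 0 were higher and 2 lower (sums 1551 and 1495). Most of these sums came from Bst2, at 1398 against 1305.5, which is also in the list of interferon-stimulated genes. Of 12 endothelial and stellate cell markers 3 were higher and 1 lower (sums 4280 and 3811). No marker stood at the repeated low value of 1 on either array. The part of these cells in the differences of the p200 genes was not tested.

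**Figure D4:**
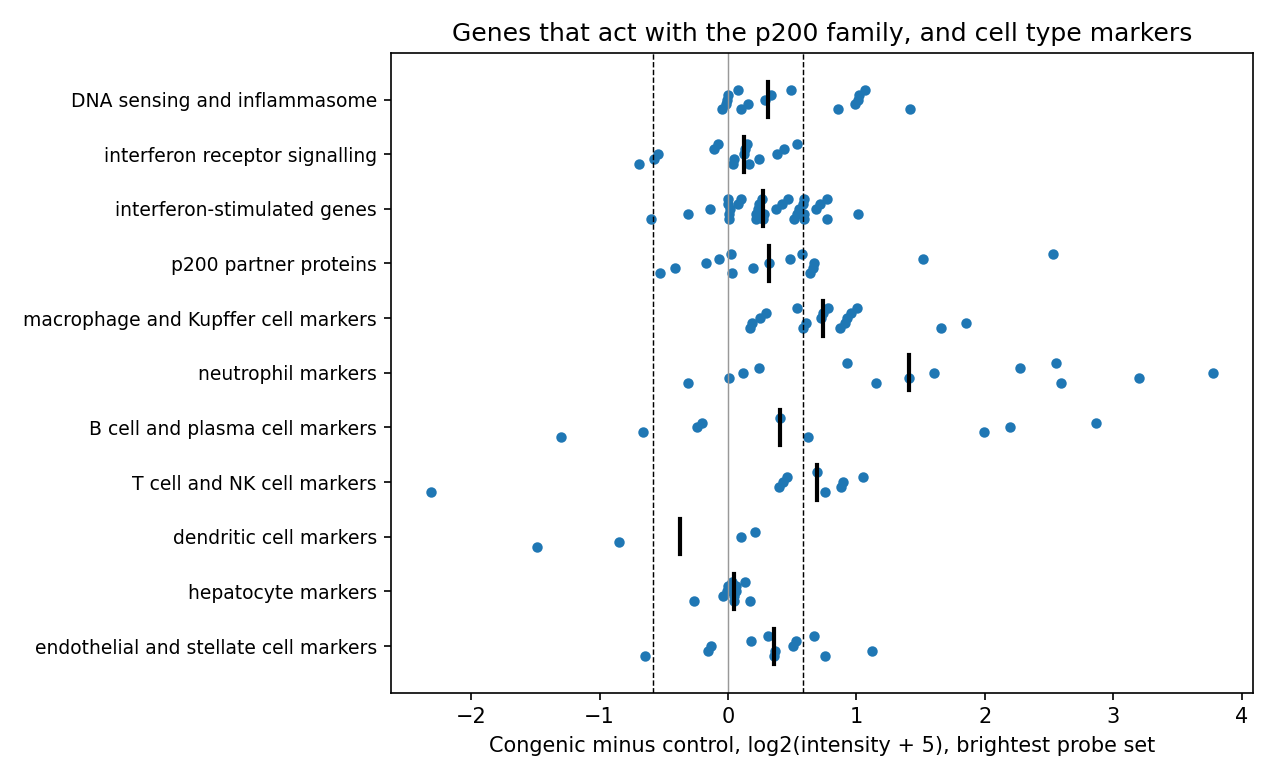
Congenic minus control difference (horizontal, log2, brightest probe set) of each gene past the filter in 4 lists of genes related to the p200 family and 7 lists of cell type markers (rows). Black bars are medians and dashed lines mark 1.5-fold. The medians run from -0.38 for dendritic cell markers to 1.41 for neutrophil markers, and hepatocyte markers sit at 0.05.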

How the data were processed

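Biotin-labelled cRNA from 8 µg of liver total RNA was hybridised to Affymetrix arrays, per the labels' protocols. The table the authors deposited holds linear intensities of 45101 probe sets on each array. How probes were summarized and arrays scaled to each other is unstated in the sources used here. Medians differed little between arrays, so intensities were used as deposited, and 64 control probe sets were left out. The number of arrays limits the precision.

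Differences were taken as log2(intensity + 5). For gene counts each gene was represented by the probe set with the highest mean over both arrays. The members and lists were chosen with earlier results of these data known. All member probe sets are named, with the 2 highest and 2 lowest genes of each pathway list and of the neighbouring genes, and the 5 genes nearest to Ifi202b. Chromosome order came from the RefSeq gene table of GRCm38.p6, whose gene positions are not given because no source used here names the array's build. The 9 symbols listed for other family genes include Pyhin1, a name of the member Ifi209. Of these symbols, 1 (Ifi207) had a probe set of its own outside the members. Upstream sequences were aligned globally with Biopython 1.88. Alternatives were a pseudocount of 20 or none, quantile normalization, median centring, a loess trend taken out (statsmodels 0.14.6, span 0.3), other filters and 2-fold. The counting was tested on simulated data.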

Additional observations from a re-analysis of the deposited data

How the results depend on the processing

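No paired analysis was possible because there is 1 array per group and no test. The difference of Ifi202b was 3.61 with a pseudocount of 20 and 7.89 with none, the median difference of member probe sets was 0.89 with the filter at the 75th percentile and reversed to -0.11 with only plain _at probe sets. Member probe sets higher by 1.5-fold numbered 1 with the filter on both arrays, 1 at 2-fold and 1 with only plain _at probe sets. Only Ifi202b was left at 2-fold. The filter on both arrays and the plain _at setting leave Ifi202b out and keep Mndal 1426906_at. Member probe sets lower by 1.5-fold numbered 0 with the filter on both arrays and 0 at the 75th percentile. Of the neighbouring genes, 4 were higher with the filter on both arrays, and 0 were lower with a pseudocount of 20 and 2 with none. Lower interferon receptor signalling genes numbered 0 with a pseudocount of 20, 2 after quantile normalization and 2 by the mean over a gene's probe sets. Higher interferon-stimulated genes numbered 4 with a pseudocount of 20 and 5 after quantile normalization, and lower ones 0 with a pseudocount of 20, which left 2 higher partner protein genes. The other 75 values stayed within 1.5 times the count reported, or within 0.34 on the log2 scale of the median or of the Ifi202b difference, where 0.34 is the SD between probe sets of 1 gene. None of the 9 other member probe sets changed sign under the pseudocounts and scalings tried, but the difference of Ifi209 1435330_at was -1.67 with a pseudocount of 20 and -2.82 with none, and that of Ifi213 1437636_at -1.04 and -2.59.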

Other observations

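Proteins that p202 and p204 are known to bind, or whose action they are known to alter, formed a further list. Of 15 measured genes of this kind 5 were higher by 1.5-fold or more on the congenic array and 0 lower. Their median difference was 0.32 on the log2(intensity + 5) scale. Over all 12613 genes past the filter 7.59% were higher and 5.26% lower, with a median of 0.04. Fos and Jun, which together form the AP-1 transcription factor, were the highest, at 1195 against 202 (difference 2.54) and 1163 against 402 (1.52). The lowest were Id1, an inhibitor of differentiation factors, at 269 against 391 (-0.53) and Gata4, a zinc-finger factor gene, at 42.1 against 57.5 (-0.41). With a pseudocount of 20, 2 of the 5 were past the limit, and with the filter required on both arrays the count was 4.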
